A study of Mus musculus with 11 samples.

Results

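The genes described here are the 47 listed members of transforming growth factor beta (TGF-beta), activin and bone morphogenetic protein (BMP) signaling, out of 17016 genes that the array names. They were chosen by name, as ligands, ligand antagonists and follistatin-like proteins, receptors, Smad proteins, inhibitors and Id target genes. Every probe of each gene was taken, 68 of 41174 probes in all. The samples were MLTC-1 cells (MLTCs), a mouse cell line grown from a Leydig tumor. They were incubated for 48 hours after transient transfection with RNA at 20 nM. The 3 groups were non-targeted MLTCs, which received the non-targeting control RNA 4611G (4 arrays), siRNA1-transfected MLTCs (4 arrays) and siRNA2-transfected MLTCs (3 arrays), the siRNAs being short duplexes of different sequence against *Mamld1*. Each array was hybridized with Cyanine-3 labeled RNA of 1 sample. The methods add human chorionic gonadotropin, which the sample labels do not name, after these 48 hours and harvest 1 hour later. All groups share the line, the transfection reagent and the harvest time, a tumor line in culture stands for the Leydig cell, and the labels do not say whether replicates were separate cultures, so the p-values measure the spread between these samples, which may be technical.

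TGF-beta, activins and BMPs are secreted dimers that bring together type II and type I receptor kinases, which phosphorylate receptor-activated Smads. TGF-beta and activin act mainly through Smad2 and Smad3, and BMPs and anti-Mullerian hormone (AMH) through Smad1 and Smad5, with Smad4 as the shared partner. In the testis, activin is a dimer of beta subunits, inhibin pairs a beta subunit with the alpha subunit and opposes activin, and AMH causes regression of the Mullerian ducts.

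The arrays lay on 3 slides, each with all 3 groups, and the 75th percentile of signal, to which each array was scaled, was 469.7 to 582 on control arrays, 601 to 774 with siRNA1 and 488 to 579 with siRNA2. On each array 58.6% to 62.6% of spots were well above background and 0 were saturated. *Mamld1*, measured by 1 probe, averaged 101% ± 17.1 (SD, n = 4) of the control mean in non-targeted MLTCs, 54.0% ± 15.4 (SD, n = 4) after siRNA1 and 59.8% ± 12.6 (SD, n = 3) after siRNA2, with log2 differences of -0.93 and -0.77 (limma adjusted p = 0.00570 and 0.0309). The siRNA2 difference of *Mamld1* lost its call without control array 3 or 4 or siRNA2 array 1 or 3, at -0.58 to -0.84 (limma adjusted p = 0.0501 to 0.117). All 8 Leydig cell markers were well above background on all 11 arrays. Among them, *Cyp17a1* was at 52.8% and 72.2% of control with siRNA1 and siRNA2 (limma adjusted p = 0.000216 and 0.0237). *Lhcgr* was at 65.4% and 112% (limma adjusted p = 0.00285 and 0.471), and the brightest probes of the others passed with neither siRNA. The Sertoli cell markers *Sox9*, *Dmrt1* and *Wt1* and the macrophage markers *Adgre1* and *Ptprc* were well above background on no array. Other markers on those lists were detected, the Sertoli cell marker *Gata1* on all 11 arrays and the macrophage marker *Csf1r* on 3 of 4 control, 2 siRNA1 and 1 siRNA2 arrays. The germ cell markers *Prm1* and *Sycp3* and the peritubular myoid markers *Acta2* and *Des* were also well above background throughout, with summed levels over these lists of 0.401 to 0.495, 0.349 to 0.487 and 0.379 to 0.464 (germ cell) and 13.2 to 17.4, 11.4 to 16.7 and 11.9 to 17.4 (myoid) of the 75th percentile in control, siRNA1 and siRNA2 arrays. With siRNA1 the germ cell marker *Ddx4* was at 31.5% ± 9.5 of control and *Des* at 61.1% ± 8.27 (SD, n = 4 each). *Ddx4* was well above background on only 1 of the 4 siRNA1 arrays, so its value lies near background. The other tested markers of these lists, *Sycp3*, *Prm1*, *Acta2* and *Myh11*, were at 114%, 93.7%, 93.3% and 89.4% with siRNA1. Of 4 endothelial markers, *Kdr* and *Tek* were well above background on no array and *Cdh5* on all 11, and their summed level, mostly *Cdh5*, was 0.640 to 0.705 of the array's 75th percentile with non-targeting RNA, 1.27 to 1.76 with siRNA1 and 1.11 to 1.35 with siRNA2; the part of these markers in the results below was not tested.

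Of the 47 genes, 40 had a probe that cleared background on all arrays of 1 group or more and were tested, and a gene with several probes was read at its brightest. With siRNA1, 8 of the 40 (20%) were higher, against 10.6% of the 11814 genes tested in all, and 9 (22.5%) were lower, against 18.7%. With siRNA2, 7 (17.5%) were higher, against 8.02%, and 5 (12.5%) were lower, against 12.2%. Passing in the same direction with both siRNAs were 3 higher genes (7.5%, against 3.85%) and 4 lower genes (10%, against 5.21%). A direct comparison of siRNA1 with siRNA2 called 16 of the 40 (40%), against 26.3% of all genes. A fold change of at least 2 beside the adjusted p was reached by 2 genes with siRNA1, *Inhba* and *Tgfbr2* (5%, against 3.06%), and by 0 with siRNA2 (against 2.42%), where the largest log2 differences were 0.87; the methods' t-test at an unadjusted threshold, with the same fold, gave the same counts. The median log2 difference over the 40 genes was 0.06 with siRNA1 and 0.03 with siRNA2, beside -0.08 and -0.02 over all genes tested, and the median size of the difference regardless of sign was 0.38 and 0.23, beside 0.22 and 0.18. Both siRNA comparisons share the control arrays, and in bulk RNA fewer cells of a type and less RNA per cell cannot be told apart. Under normexp background correction, an alternative to the deposited processed signal, 2 of the 45 gene calls were kept and 8 turned sign, among them those of *Tgfbr2*, *Tgfbr3*, *Gdf9*, *Smad7* and *Id2*, and that of *Mamld1* turned too (0.65 and 0.44). Up to 10 spots on an array had extreme local backgrounds. With these replaced, the same correction kept 41 of the 45 calls and turned 1, and *Mamld1* gave -0.21 with siRNA2 (limma adjusted p = 0.219). With slide as a block in the fit, all 45 gene calls of the 3 comparisons were kept, and all 45 had the same sign within each of the 3 slides. The calls came from these same arrays and no share over all genes is given, so the shared sign adds no support. Leaving out 1 array also moved the calls over all probes, to 4974 to 6672 with siRNA1 and 2976 to 4412 with siRNA2. Some counts rested on single arrays: the higher count with siRNA1 fell to 4 without control array 1 or siRNA1 array 3, the lower count with siRNA2 fell to 3 without control array 1 or 2, siRNA1 array 1 or 3, or siRNA2 array 3, to 2 without control array 3 and to 1 without siRNA2 array 1, and the 7 genes past the threshold with both siRNAs fell to 3 without control array 1 or siRNA1 array 3 and to 4 without control array 2 or 3 or siRNA2 array 1.

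**Figure D1:**
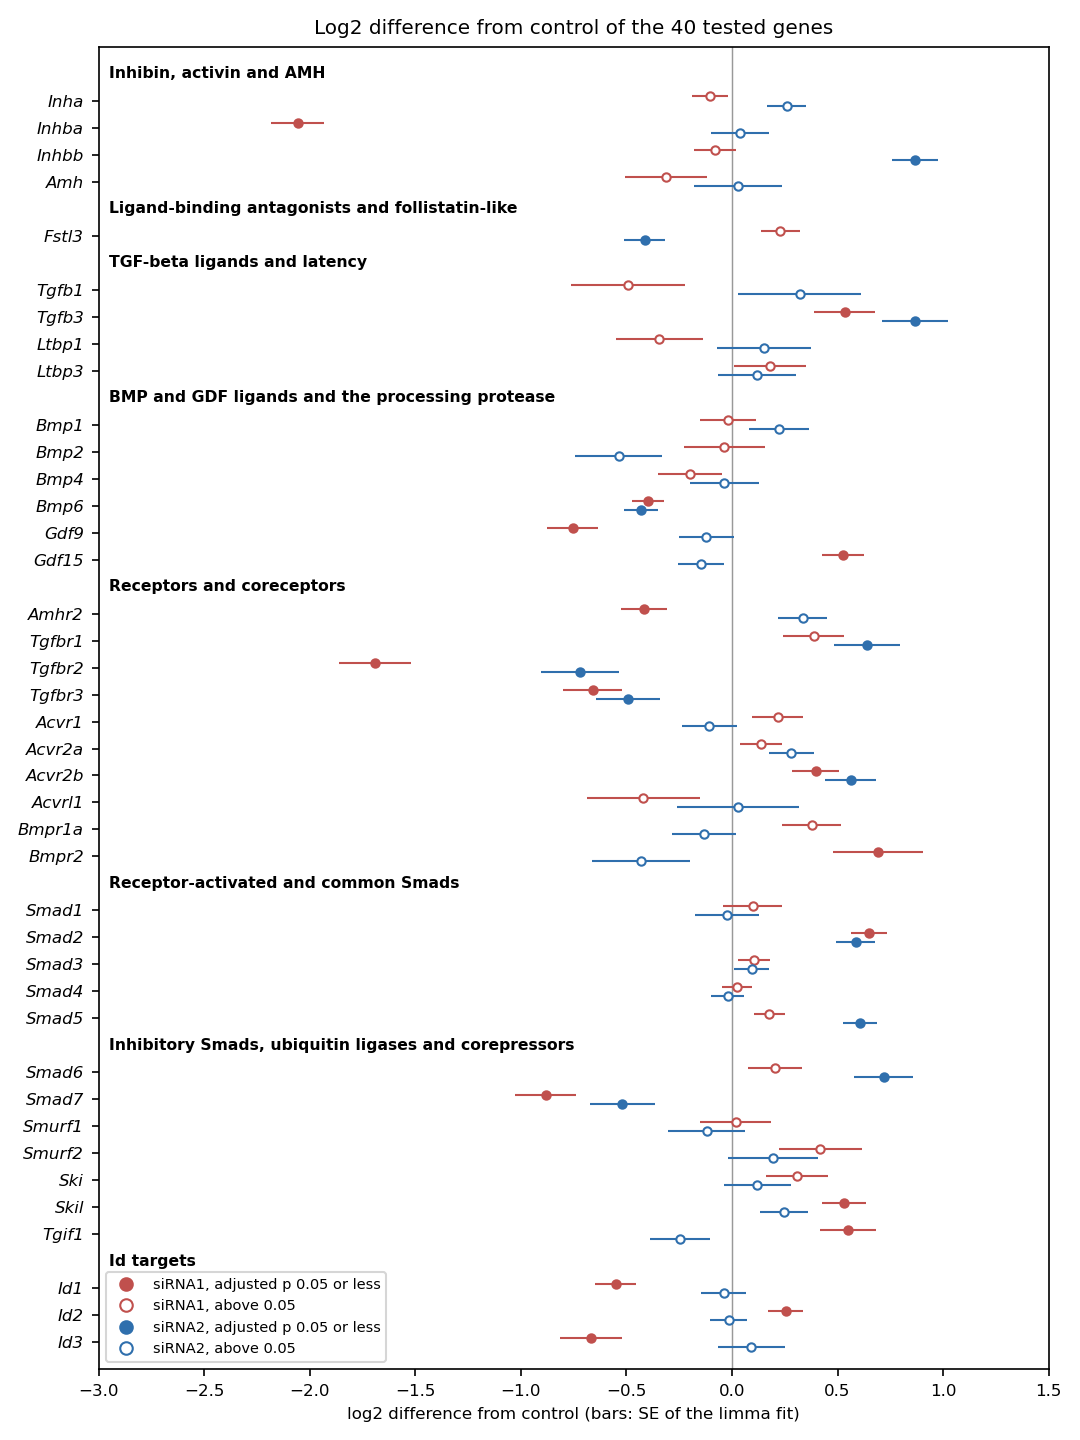
Log2 difference from control (x axis) of the 40 tested genes, grouped by role (y axis), with siRNA1 in red and siRNA2 in blue; points are limma estimates, bars their standard errors, and filled points passed an adjusted p of 0.05. *Inhba* with siRNA1 lies farthest from 0, at -2.06, while its siRNA2 point lies at 0.04.

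**Figure D2:**
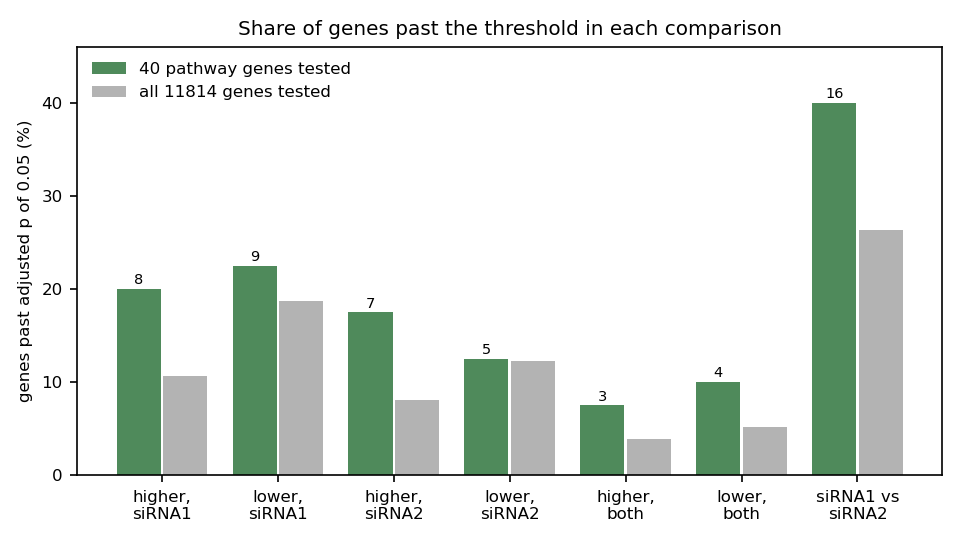
Percent of genes past an adjusted p of 0.05 (y axis) in each comparison (x axis), for the 40 tested pathway genes (green, with their number on the bar) and all 11814 genes tested (grey). The green bar is 12.5% against 12.2% for genes lower with siRNA2 and 40% against 26.3% for the comparison of the siRNAs.

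Promoter windows of 300 bases, from 250 before to 50 after an annotated transcript start, from RefSeq (build GRCm38.p6), were at hand for 34 of the 47 genes, in 45 windows. *Amh*, *Fst*, *Tgfb3*, *Bmp1*, *Bmp2*, *Gdf9*, *Tgfbr3*, *Acvrl1*, *Smad2*, *Smad4*, *Smad7*, *Skil* and *Id1* had no window in the table used here. Both strands were searched for 5 motifs, as a description of the letters only. The palindromic Smad element GTCTAGAC was found in the window of *Smad6* alone among these genes and in 0.213% of 32851 windows in all. GGCGCC, the GC-rich element of BMP Smads, was found in 10 of the 45 windows (22.2%), against 11.9% of all windows, and belonged to *Acvr1b*, *Bmpr1a*, *Bmpr2*, *Id2*, *Id4*, *Ski*, *Smad5*, *Smurf2* and *Tgfbr1*. The cAMP response element TGACGTCA was found only in the window of *Ltbp1* (1.79% of all windows), and its TGACG part, which the full element also contains, was found in 6 windows (13.3%, against 20.8%), those of *Id3*, *Id4*, *Ltbp1*, *Smad1*, *Smad5* and *Tgfb2*. CAAGGTCA, the site of the steroidogenic factor Nr5a1, was found only in the window of *Amhr2* (1.56% of all windows). Shown here are *Inhba*, which had the largest difference and none of the 5 motifs, and 3 genes that differed between the siRNAs and held a motif, which is in capitals. On the strand of the gene, CAAGGTCA begins 232 bases before the start in *Amhr2*, the reverse complement of TGACG begins 170 bases before it in *Id3*, and GTCTAGAC begins 4 bases before it in *Smad6*.

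Inhba, chr13:16011601-16011900, plus strand: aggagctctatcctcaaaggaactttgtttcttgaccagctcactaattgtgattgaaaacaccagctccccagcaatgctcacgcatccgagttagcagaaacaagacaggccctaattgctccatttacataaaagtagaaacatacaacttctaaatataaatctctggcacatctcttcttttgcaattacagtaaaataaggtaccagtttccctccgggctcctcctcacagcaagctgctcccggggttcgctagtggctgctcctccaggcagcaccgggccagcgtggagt
Amhr2, chr15:102445117-102445416, plus strand: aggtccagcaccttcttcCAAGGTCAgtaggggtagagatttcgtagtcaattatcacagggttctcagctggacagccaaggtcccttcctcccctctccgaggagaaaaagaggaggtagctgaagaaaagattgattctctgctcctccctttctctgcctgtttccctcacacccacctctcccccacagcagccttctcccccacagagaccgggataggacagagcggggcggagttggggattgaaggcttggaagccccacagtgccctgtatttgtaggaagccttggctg
Id3, chr4:136143572-136143871, plus strand: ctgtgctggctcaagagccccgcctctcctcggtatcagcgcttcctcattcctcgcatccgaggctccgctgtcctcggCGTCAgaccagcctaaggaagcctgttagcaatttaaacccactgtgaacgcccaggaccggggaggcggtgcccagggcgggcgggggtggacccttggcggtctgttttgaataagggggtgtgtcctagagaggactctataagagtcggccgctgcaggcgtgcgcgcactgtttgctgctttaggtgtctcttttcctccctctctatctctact
Smad6, chr9:64022010-64022309, minus strand: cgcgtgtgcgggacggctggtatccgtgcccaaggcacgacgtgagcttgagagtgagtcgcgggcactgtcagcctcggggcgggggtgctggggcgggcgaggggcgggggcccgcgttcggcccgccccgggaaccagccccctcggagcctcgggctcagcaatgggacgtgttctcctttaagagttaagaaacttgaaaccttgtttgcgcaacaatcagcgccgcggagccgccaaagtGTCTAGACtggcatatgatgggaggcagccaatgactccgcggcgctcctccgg

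The inhibin and activin subunit genes differed from one another. *Inhba*, which encodes the activin beta-A subunit, was lower with siRNA1, *Inhbb*, which encodes the beta-B subunit, was higher with siRNA2, and *Inha*, which encodes the inhibin alpha subunit, passed the threshold only in the comparison of the siRNAs. *Inhba* stood at 82.9%, 103%, 110% and 107% of the control mean on the control arrays, at 22.2%, 27.4%, 21.0% and 26.1% with siRNA1, and at 88.6%, 109% and 113% with siRNA2. All 4 siRNA1 arrays were thus far below every other array, and the siRNA2 arrays overlapped the control arrays. The log2 difference was -2.06 with siRNA1 (SE 0.13, limma adjusted p = 1.84e-06) and 0.04 with siRNA2 (95% interval -0.26 to 0.34, limma adjusted p = 0.898). Between the siRNAs it was -2.10 (SE 0.14, limma adjusted p = 2.98e-06), and within slides 1, 2 and 3 the siRNA1 difference from control was -2.05, -2.19 and -2.04.

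*Inhbb* stood at 84.2%, 111%, 101% and 107% on the control arrays, at 86.2%, 104%, 94.9% and 94.6% with siRNA1, and at 171%, 189% and 188% with siRNA2. Only the siRNA2 arrays lay outside the control range, all of them above it. The log2 difference was 0.87 with siRNA2 (SE 0.11, limma adjusted p = 0.000288) and -0.08 with siRNA1 (95% interval -0.30 to 0.14), and that between the siRNAs was -0.95 (limma adjusted p = 0.000114). A dimmer probe of *Inhbb* gave 0.16 with siRNA2 (limma adjusted p = 0.686), so the rise rests on the brighter probe. *Inha* was at 100% ± 5.89 (SD, n = 4) in controls, 93.2% ± 6.04 (SD, n = 4) after siRNA1 and 120% ± 9.58 (SD, n = 3) after siRNA2. Its siRNA2 arrays, at 111%, 118% and 130%, lay above all other arrays. The siRNA2 difference of 0.26 did not pass (limma adjusted p = 0.0747), and the difference between the siRNAs, -0.36 (SE 0.09, limma adjusted p = 0.0142), passed with all arrays but not without siRNA2 array 3 (-0.30, limma adjusted p = 0.0660). The dimmer *Inha* probe showed -0.02 and -0.01 with the siRNAs and -0.01 between them (limma adjusted p = 0.985).

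*Amh*, the gene of anti-Mullerian hormone, passed in no comparison, with log2 differences of -0.31 (95% interval -0.74 to 0.11) and 0.03 (95% interval -0.43 to 0.49). *Amhr2*, the gene of its type II receptor, stood at 90.3%, 102%, 101% and 107% on the control arrays, at 66.7%, 74.0%, 72.1% and 88.7% with siRNA1, and at 115%, 121% and 143% with siRNA2. The groups did not overlap, with siRNA1 below and siRNA2 above control. The log2 difference of *Amhr2* was -0.42 with siRNA1 (SE 0.11, limma adjusted p = 0.0155) and 0.33 with siRNA2 (limma adjusted p = 0.0739; with a slide block, 0.0180), and the siRNAs differed by -0.75 (SE 0.12, limma adjusted p = 0.000882).

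Among the genes of ligand-binding antagonists and follistatin-like proteins, those of follistatin and follistatin-like 1 were barely detected. *Fst* was well above background on 2 of the 4 siRNA1 arrays and on no other array, with geometric mean signals of 2.17, 7.52 and 2.5 in the control, siRNA1 and siRNA2 groups, and *Fstl1* was so on 1 siRNA1 array only, so neither was tested. *Fstl3*, which encodes the follistatin-like 3 antagonist, stood at 94.5%, 94.1%, 106% and 106% on the control arrays, at 105%, 130%, 114% and 121% with siRNA1, and at 68.9%, 76.9% and 79.8% with siRNA2. The siRNA2 arrays all lay below control, whereas siRNA1 overlapped it. The log2 difference was -0.41 with siRNA2 (SE 0.10, limma adjusted p = 0.0136, but -0.35 and 0.0558 without siRNA2 array 1) and 0.23 with siRNA1 (limma adjusted p = 0.0882), and the siRNAs differed by 0.64 (SE 0.10, limma adjusted p = 0.000775).

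**Figure D3:**
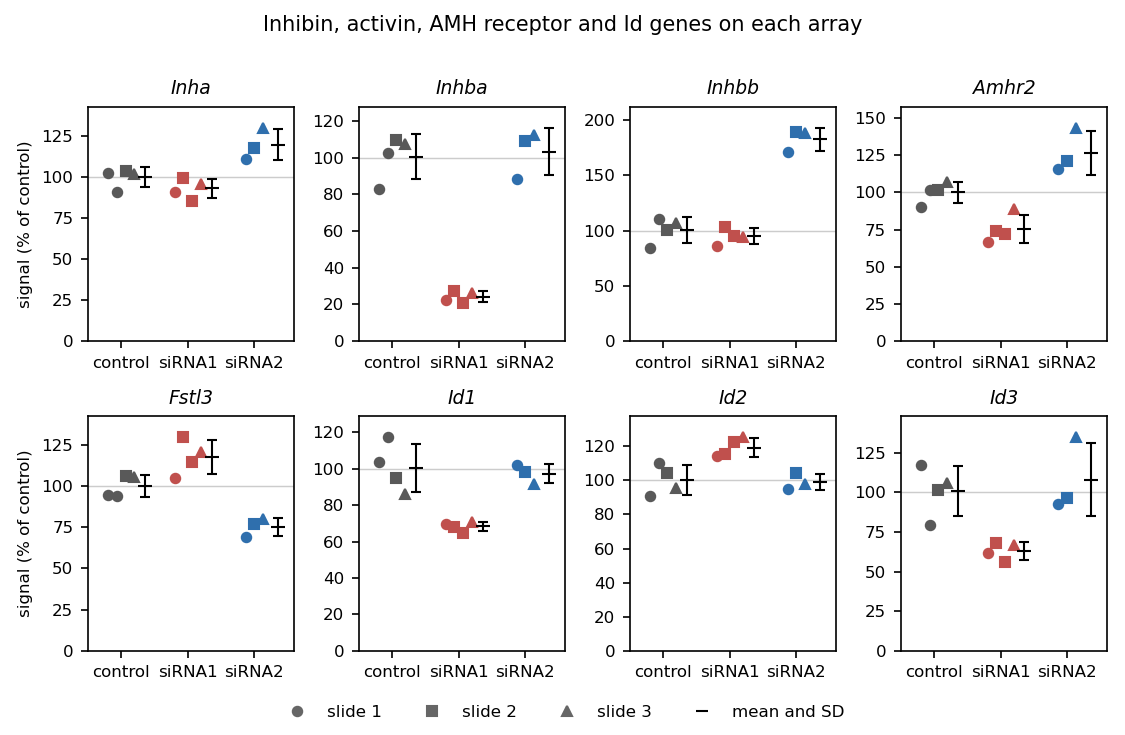
Signal on each array as a percent of the control mean (y axes, from 0) in the 3 groups (x axes) for 8 genes; point shapes mark the slide, and the black bars give mean and SD. The siRNA1 arrays of *Inhba* sit between 21.0% and 27.4%, those of *Id1* between 64.9% and 71.0%, and the siRNA2 arrays of *Inhbb* between 171% and 189%.

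The TGF-beta ligand genes included 1, *Tgfb3*, that was higher with both siRNAs. *Tgfb3* stood at 88.4%, 94.7%, 116% and 103% on the control arrays, at 109%, 160%, 157% and 160% with siRNA1, and at 161%, 182% and 207% with siRNA2. All siRNA2 arrays were above control, and siRNA1 array 1 was the only siRNA array within the control range. The log2 differences were 0.53 (SE 0.14, limma adjusted p = 0.0179) and 0.87 (SE 0.16, limma adjusted p = 0.00268), and the siRNA1 call was lost without control array 1 (0.47, limma adjusted p = 0.0503) or siRNA1 array 3 (0.50, limma adjusted p = 0.0538). The siRNAs differed by -0.33 (limma adjusted p = 0.15; with a slide block, 0.0160). *Tgfb1* ranged from 72.0% to 140% on the control arrays, 48.9% to 93.1% with siRNA1 and 103% to 163% with siRNA2. Its control arrays overlapped both siRNA groups, which did not overlap each other. Differences of -0.49 with siRNA1 (95% interval -1.08 to 0.10), 0.32 with siRNA2 (95% interval -0.32 to 0.96) and -0.81 between them (limma adjusted p = 0.0657) did not pass, but with a slide block those of siRNA1 (-0.62, limma adjusted p = 0.0187) and between the siRNAs (-0.83, limma adjusted p = 0.00684) did. *Tgfb2* was well above background on no array. The latent TGF-beta binding protein genes *Ltbp1* and *Ltbp3*, whose products hold TGF-beta in the matrix, passed in no comparison.

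Of the 6 genes of BMP and growth differentiation factor ligands and the protease Bmp1, only *Bmp6* moved with both siRNAs. *Bmp6* stood at 99.7%, 95.5%, 101% and 103% on the control arrays, at 81.5%, 77.0%, 73.5% and 71.8% with siRNA1, and at 78.7%, 69.0% and 74.9% with siRNA2. Both siRNA groups were below every control array and overlapped one another. The log2 differences were -0.40 (SE 0.08, limma adjusted p = 0.00274) and -0.43 (SE 0.08, limma adjusted p = 0.00380), with 0.03 between the siRNAs (95% interval -0.15 to 0.21). A dimmer *Bmp6* probe fell by 0.38 with siRNA2 (limma adjusted p = 0.0213) and gave -0.19 with siRNA1 (limma adjusted p = 0.149).

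*Gdf9*, best known as an oocyte growth factor gene, stood at 87.8%, 112%, 101% and 101% on the control arrays, at 52.9%, 55.5%, 55.9% and 75.3% with siRNA1, and at 90.5%, 87.9% and 97.4% with siRNA2. The siRNA1 arrays lay below all others. Its log2 difference was -0.75 with siRNA1 (SE 0.12, limma adjusted p = 0.000923) and -0.12 with siRNA2 (95% interval -0.41 to 0.16), and the siRNAs differed by -0.63 (limma adjusted p = 0.00462). *Gdf15*, a stress-responsive member of the family, went the other way with siRNA1, at 149%, 157%, 133% and 137%, against 113%, 103%, 103% and 83.8% on the control arrays and 89.7%, 94.2% and 87.0% with siRNA2. No siRNA1 array reached down to the others, and siRNA2 overlapped control. The log2 difference of *Gdf15* was 0.53 with siRNA1 (SE 0.10, limma adjusted p = 0.00288) and -0.15 with siRNA2 (95% interval -0.39 to 0.09), and it differed between the siRNAs by 0.67 (limma adjusted p = 0.00108). *Bmp1*, *Bmp2* and *Bmp4* passed in no comparison.

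Receptor genes moved in both directions. *Tgfbr2*, the gene of the type II TGF-beta receptor, was lower with both siRNAs, and *Tgfbr1*, the gene of its type I partner, was higher with siRNA2. *Tgfbr2* stood at 116%, 71.1%, 117% and 103% on the control arrays, at 32.4%, 33.3%, 30.7% and 27.8% with siRNA1, and at 47.9%, 66.4% and 70.6% with siRNA2. The 3 groups did not overlap, although the highest siRNA2 array came within 1 percentage point of the lowest control array. The log2 differences were -1.69 with siRNA1 (SE 0.17, limma adjusted p = 4.42e-05) and -0.72 with siRNA2 (SE 0.18, limma adjusted p = 0.0196), and the siRNAs differed by -0.97 (SE 0.18, limma adjusted p = 0.00294). The siRNA2 call of *Tgfbr2* was lost on leaving out control array 1 or 3 or siRNA2 array 1, at -0.65, -0.64 and -0.55 (limma adjusted p = 0.0522, 0.0541 and 0.0777). Its geometric mean signal was 37.3, 14.6 and 24.1 in the control, siRNA1 and siRNA2 groups, and all 11 arrays marked it well above background, the dimmest signal with that mark being 6.94 to 8.90 by array. A second *Tgfbr2* probe was well above background on no array and was not tested, so the fall rests on 1 probe. Its geometric mean signals in the same groups were 2.05, 2.19 and 2.09.

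*Tgfbr1* stood at 117%, 97.9%, 96.0% and 91.3% on the control arrays, at 156%, 110%, 141% and 120% with siRNA1, and at 196%, 142% and 136% with siRNA2. The siRNA2 arrays lay above control, and 1 siRNA1 array fell within it. The log2 difference was 0.64 with siRNA2 (SE 0.16, limma adjusted p = 0.0157, but 0.48 and 0.0601 without siRNA2 array 1) and 0.39 with siRNA1 (limma adjusted p = 0.0731; with a slide block, 0.00932). A dimmer *Tgfbr1* probe gave 0.53 with siRNA2 (limma adjusted p = 0.00394) and -0.04 with siRNA1 (limma adjusted p = 0.768). Between the siRNAs the dimmer probe gave -0.57 (limma adjusted p = 0.00186) and the brighter one -0.25 (limma adjusted p = 0.282). *Tgfbr3*, the gene of the coreceptor betaglycan, which presents TGF-beta and binds inhibin, stood at 88.5%, 119%, 93.1% and 102% on the control arrays, at 68.9%, 65.4%, 65.8% and 54.1% with siRNA1, and at 60.7%, 90.1% and 65.8% with siRNA2. The siRNA1 arrays were below control, and siRNA2 array 2 lay within it. The log2 differences of *Tgfbr3* were -0.66 (SE 0.14, limma adjusted p = 0.00534) and -0.49 (SE 0.15, limma adjusted p = 0.0456), and the second call was lost on leaving out any of 8 arrays, control 2, 3 or 4, siRNA1 1, 2 or 3 or siRNA2 1 or 3, at -0.38 to -0.53 (limma adjusted p = 0.0540 to 0.159).

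*Acvr2b*, the gene of a type II activin receptor, stood at 93.8%, 86.3%, 116% and 107% on the control arrays, at 121%, 134%, 138% and 134% with siRNA1, and at 129%, 151% and 165% with siRNA2. Every siRNA array lay above every control array. The log2 differences were 0.40 (SE 0.11, limma adjusted p = 0.0218) and 0.56 (SE 0.12, limma adjusted p = 0.00746), and the siRNA1 call was lost without control array 1 or 2 or siRNA1 array 3, at 0.33 to 0.37 (limma adjusted p = 0.0569 to 0.0621). Under normexp with extreme local backgrounds replaced, the *Acvr2b* differences became -0.061 and 0.13 (limma adjusted p = 0.586 and 0.398), so the siRNA1 direction turned and neither passed. *Bmpr2*, the gene of the type II BMP receptor, was at 102% ± 25.6 (SD, n = 4) in controls, 163% ± 28.8 (SD, n = 4) after siRNA1 and 76.1% ± 19.7 (SD, n = 3) after siRNA2. The siRNA1 arrays, from 135% to 196%, lay above all others, the highest control array being at 134%. The log2 difference of *Bmpr2* was 0.69 with siRNA1 (SE 0.21, limma adjusted p = 0.0345), which was not past the threshold without control array 1, 2 or 4 or siRNA1 array 2, 3 or 4, at 0.54 to 0.75 (limma adjusted p = 0.0514 to 0.0873). It was -0.43 with siRNA2 (limma adjusted p = 0.249; with a slide block, 0.0305) and 1.12 between the siRNAs (SE 0.23, limma adjusted p = 0.00487).

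*Bmpr1a*, the gene of a type I BMP receptor, differed only between the siRNAs, by 0.51 (SE 0.15, limma adjusted p = 0.0308), the siRNA1 mean being 130% ± 8.83 (SD, n = 4) and the siRNA2 mean 92.1% ± 15.3 (SD, n = 3). That call was lost on leaving out siRNA1 arrays 1, 3 or 4 or siRNA2 arrays 2 or 3 singly, at 0.38 to 0.54 (limma adjusted p = 0.0518 to 0.133), and the siRNA1 difference from control, 0.38 (limma adjusted p = 0.0689), passed with a slide block (0.44, limma adjusted p = 0.00663). A dimmer *Bmpr1a* probe gave 0.57 between the siRNAs and did not pass (limma adjusted p = 0.0943). The brightest probes of *Acvr1*, *Acvr2a* and *Acvrl1* passed in no comparison, but a dimmer probe of *Acvr2a*, the gene of the other type II activin receptor, was higher with siRNA1 by 0.99 (limma adjusted p = 0.00113), where the brighter one gave 0.14 (limma adjusted p = 0.343). *Acvr1b*, *Bmpr1b* and *Eng* were well above background on no array.

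**Figure D4:**
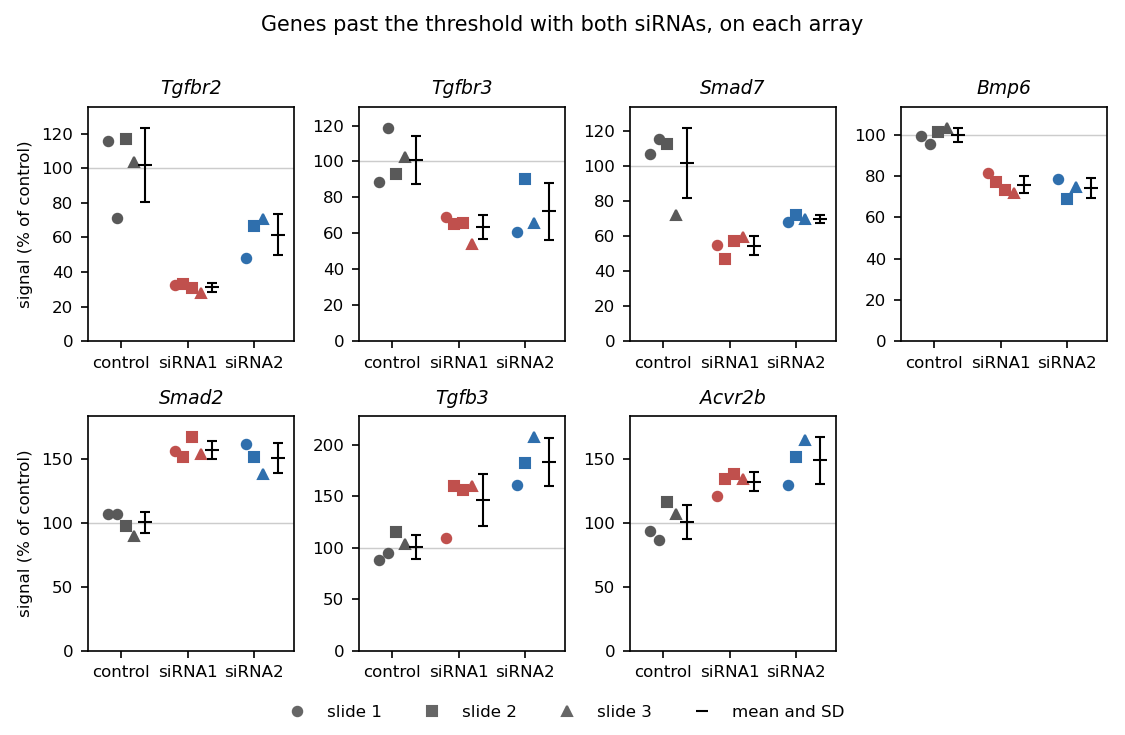
Signal on each array as a percent of the control mean (y axes, from 0) in the 3 groups (x axes) for the 7 genes past the threshold in the same direction with both siRNAs; point shapes mark the slide, and the black bars give mean and SD. The siRNA1 arrays of *Tgfbr2* sit at 27.8% to 33.3% and its siRNA2 arrays at 47.9% to 70.6%, while siRNA2 array 2 of *Tgfbr3* and siRNA1 array 1 of *Tgfb3* lie within the control range.

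Of the receptor-activated and common Smad genes, *Smad2* was higher with both siRNAs and *Smad5* with siRNA2. *Smad2*, which carries TGF-beta and activin signals, stood at 107%, 107%, 97.5% and 89.7% on the control arrays, at 156%, 151%, 167% and 153% with siRNA1, and at 161%, 152% and 138% with siRNA2. All 7 siRNA arrays were above all control arrays. The log2 differences were 0.65 (SE 0.09, limma adjusted p = 0.000277) and 0.59 (SE 0.09, limma adjusted p = 0.00128), with 0.06 between the siRNAs (95% interval -0.14 to 0.27). *Smad5*, which carries BMP signals, stood at 102%, 99.8%, 91.8% and 107% on the control arrays, at 116%, 112%, 112% and 112% with siRNA1, and at 159%, 153% and 145% with siRNA2. The 3 groups did not overlap. The log2 difference of *Smad5* was 0.61 with siRNA2 (SE 0.08, limma adjusted p = 0.000377) and 0.18 with siRNA1 (limma adjusted p = 0.0996), and the siRNAs differed by -0.43 (limma adjusted p = 0.00246). The 2 dimmer *Smad5* probes gave 0.52 (limma adjusted p = 0.105) and 0.06 (limma adjusted p = 0.921) with siRNA2.

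*Smad1*, *Smad3* and *Smad4* did not pass at their brightest probes. *Smad4*, the shared partner, gave 0.02 with siRNA1 (95% interval -0.13 to 0.18) and -0.02 with siRNA2 (95% interval -0.19 to 0.15). *Smad3*, which shares the TGF-beta and activin arm with *Smad2*, gave 0.10 (95% interval -0.06 to 0.27) and 0.09 (95% interval -0.09 to 0.27). *Smad1* gave 0.10 (95% interval -0.21 to 0.40) and -0.02 (95% interval -0.35 to 0.31). Dimmer probes disagreed with siRNA1, being higher for *Smad1* by 0.45 (limma adjusted p = 0.0423) and lower for *Smad3*, at -0.37 (limma adjusted p = 0.0109). The dimmer *Smad1* probe also differed between the siRNAs, by 0.53 (limma adjusted p = 0.0323).

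Of the inhibitory Smad genes, *Smad7* was lower with both siRNAs and *Smad6* was higher with siRNA2 only. *Smad7*, whose product blocks the type I TGF-beta receptor, stood at 107%, 115%, 113% and 72.1% on the control arrays, at 54.6%, 46.7%, 57.4% and 59.4% with siRNA1, and at 67.7%, 72.1% and 69.6% with siRNA2. Control array 4 was well below the other control arrays and level with the siRNA2 arrays. The log2 differences were -0.88 (SE 0.14, limma adjusted p = 0.00112) and -0.52 (SE 0.16, limma adjusted p = 0.0401), and within slides the siRNA2 difference was -0.71, -0.64 and, on the slide with control array 4, -0.05. The siRNA2 call of *Smad7* was lost on leaving out control array 1, 2 or 3, siRNA1 array 1 or 3 or any siRNA2 array, at -0.45 to -0.54 (limma adjusted p = 0.0528 to 0.102). *Smad6*, whose product mainly blocks BMP signals, stood at 94.6%, 89.0%, 112% and 106% on the control arrays, at 145%, 115%, 110% and 95.8% with siRNA1, and at 149%, 174% and 172% with siRNA2. The siRNA2 arrays were the highest, followed closely by siRNA1 array 1. *Smad6* differed from control by 0.72 with siRNA2 (SE 0.14, limma adjusted p = 0.00429) and 0.20 with siRNA1 (limma adjusted p = 0.276). Its difference between the siRNAs, -0.52 (limma adjusted p = 0.0199), was -0.04 within slide 1 and was not past the threshold without siRNA1 array 3 or siRNA2 array 2 or 3, at -0.48 to -0.49 (limma adjusted p = 0.0522 to 0.0757).

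Of the other inhibitors, the corepressor genes *Skil* and *Tgif1* were higher with siRNA1. *Skil* stood at 101%, 109%, 101% and 89.8% on the control arrays, at 151%, 126%, 159% and 144% with siRNA1, and at 136%, 113% and 109% with siRNA2, and only the siRNA1 arrays were clear of control. Its log2 difference was 0.53 with siRNA1 (SE 0.10, limma adjusted p = 0.00347) and 0.25 with siRNA2 (limma adjusted p = 0.167), while a dimmer *Skil* probe was higher with both, by 0.37 (limma adjusted p = 0.0237) and 0.40 (limma adjusted p = 0.0310). *Tgif1* stood at 117%, 89.5%, 91.1% and 104% on the control arrays, at 171%, 136%, 161% and 122% with siRNA1, and at 94.6%, 84.5% and 75% with siRNA2. Its siRNA1 arrays were above all others. The log2 difference of *Tgif1* was 0.55 with siRNA1 (SE 0.13, limma adjusted p = 0.0104) and -0.25 with siRNA2 (95% interval -0.56 to 0.07), and it differed between the siRNAs by 0.79 (SE 0.14, limma adjusted p = 0.00216). *Ski* and the Smad ubiquitin ligase genes *Smurf1* and *Smurf2* passed in no comparison.

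The Id genes, whose products bind basic helix-loop-helix factors and which are classic BMP targets, passed the threshold against control with siRNA1 for the 3 tested members, 1 higher and 2 lower (against 10.6% and 18.7% of all genes), and for 0 of them with siRNA2 (against 8.02% and 12.2%), the call of *Id2* being lost on leaving out any 1 of 9 arrays. *Id1* stood at 104%, 117%, 95.2% and 86.3% on the control arrays, at 69.5%, 67.8%, 64.9% and 71.0% with siRNA1, and at 102%, 98.0% and 91.9% with siRNA2. All siRNA1 arrays lay below the others. The log2 difference was -0.55 with siRNA1 (SE 0.10, limma adjusted p = 0.00175) and -0.04 with siRNA2 (95% interval -0.27 to 0.19), and the siRNAs differed by -0.51 (limma adjusted p = 0.00465). A further *Id1* probe gave -0.50 with siRNA1 (limma adjusted p = 0.000599) and 0.07 with siRNA2. *Id3* stood at 117%, 79.5%, 101% and 106% on the control arrays, at 61.6%, 68.1%, 55.9% and 66.7% with siRNA1, and at 92.9%, 96.5% and 135% with siRNA2. Here too the siRNA1 arrays lay below all others. The log2 difference of *Id3* was -0.67 with siRNA1 (SE 0.15, limma adjusted p = 0.00618), 0.09 with siRNA2 (95% interval -0.26 to 0.44) and -0.76 between the siRNAs (limma adjusted p = 0.00511).

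*Id2* went the other way, at 91.1%, 110%, 104% and 95.5% on the control arrays, 114%, 115%, 122% and 125% with siRNA1, and 95.1%, 104% and 97.6% with siRNA2. The siRNA1 arrays were the 4 highest by a small margin. Its log2 difference, 0.25 with siRNA1 (SE 0.08, limma adjusted p = 0.0409), was not past the threshold without any 1 of 9 arrays, that is, any but control array 2 and siRNA2 array 1, at 0.21 to 0.27 (limma adjusted p = 0.0516 to 0.110). The *Id2* difference between the siRNAs, 0.27 (limma adjusted p = 0.0486), was lost without any 1 of 9 arrays, any but control arrays 1 and 2, at 0.24 to 0.31 (limma adjusted p = 0.0611 to 0.126). A second *Id2* probe gave 0.22 with siRNA1 (limma adjusted p = 0.0588). *Id4* was well above background on no array.

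The 16 genes that differed between the siRNAs fell into 9 that had passed with siRNA1 alone (*Amhr2*, *Bmpr2*, *Gdf9*, *Gdf15*, *Id1*, *Id2*, *Id3*, *Inhba* and *Tgif1*), 4 with siRNA2 alone (*Fstl3*, *Inhbb*, *Smad5* and *Smad6*), 1 with both (*Tgfbr2*) and 2 with neither (*Inha* and *Bmpr1a*). All 16 kept their sign within each slide. The two-sided exact permutation test over arrays gave p = 0.0286 for 14 of them, the smallest p that 4 arrays against 3 can give, and p = 0.0571 for *Gdf9* and *Smad6*. The signs and these p-values were read on the same arrays that called the 16 genes. They are given without the share over all genes, so they add no support. The 16 tested genes that passed in no comparison had log2 differences between -0.49 and 0.42 with siRNA1 and between -0.54 and 0.32 with siRNA2.

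**Figure D5:**
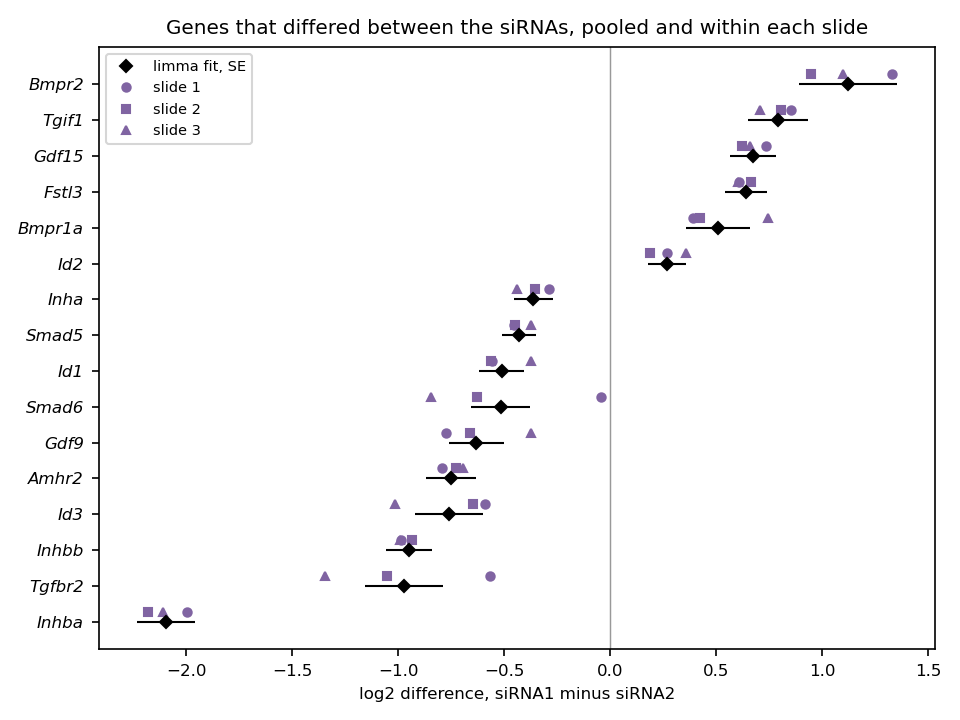
Log2 difference of siRNA1 minus siRNA2 (x axis) for the 16 genes past an adjusted p of 0.05 (y axis); diamonds are the limma estimates with standard errors, and the purple points are the differences within each of the 3 slides. All within-slide points lie on the side of the estimate, from -2.18 for *Inhba* to 1.33 for *Bmpr2*, and the point nearest 0 is *Smad6* on slide 1, at -0.04.

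A wider set of 79 genes of the same pathways, listed by role, was read in the same way. Probes named 75 of them, and 45 were tested. Transfection with siRNA1 gave 8 higher and 9 lower genes of the 45, against 10.6% and 18.7% of all genes tested, and siRNA2 gave 6 and 7, against 8.02% and 12.2%, with median log2 differences of -0.05 and 0.04, beside -0.08 and -0.02 over all genes. By role, the tested genes higher and lower with siRNA1 were 1 and 3 of 6 other ligands, 1 and 1 of 12 extracellular regulators, 4 and 2 of 12 intracellular regulators, 0 and 3 of 11 TGF-beta and activin response genes, and 2 and 0 of 4 BMP response genes. With siRNA2 they were 0 and 2, 2 and 1, 1 and 1, 1 and 3, and 2 and 0. The higher BMP response genes with each siRNA, and so the 8 and 6 higher genes in all, include *Hey1*. That gene entered the test only through the siRNA arrays, where it was high, so it adds no support to these counts.

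Past the threshold with both siRNAs were 4 higher and 6 lower of the 45 tested genes of the wider set, against 3.85% and 5.21% of all genes. Higher were *Usp15*, a deubiquitinase of the TGF-beta receptor complex (log2 differences 1.11 and 1.21), *Bambi*, a pseudoreceptor (0.36 and 0.50), and *Runx2*, a transcription factor gene (1.42 and 0.98). A second *Usp15* probe gave 1.04 and 1.11, and of 4 *Runx2* probes 3 gave at least 1.22 and 0.94, but 1 gave 0.18 (limma adjusted p = 0.328) and -0.06 (limma adjusted p = 0.839). *Hey1*, a transcriptional repressor gene, was not well above background on any control array and was higher by at least 1.32-fold with siRNA1 and at least 1.61-fold with siRNA2, taking the higher of its own signal and the lowest signal well above background as each control array's level (limma adjusted p = 0.000850 and 0.000450). It entered the test only through the siRNA arrays, where it was high, so its call adds no support and the count of higher genes is 3 without it. Lower were, among others, *Hjv*, a BMP coreceptor gene (-1.45 and -1.04), *Bmp8b* (-1.31 and -0.84), *Gdf1* (-0.94 and -0.75) and *Vegfa* (-0.45 and -0.33). *Bmp8b* is nearly identical to *Bmp8a*, and *Gdf1* shares a transcript with a neighbouring gene, so their source is uncertain, and both dimmer *Vegfa* probes passed with neither siRNA.

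With siRNA1 alone, *Snai2*, the gene of the repressor Slug, fell by 1.91 on the log2 scale (limma adjusted p = 7.87e-05) and *Map3k7*, the gene of the TGF-beta activated kinase, by 1.58 (limma adjusted p = 3.95e-06), against -0.11 and 0.12 with siRNA2 and with differences between the siRNAs of -1.81 and -1.70; both were picked after their values were seen.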

How the data were processed

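RNA of 11 samples was hybridized to 1-colour Agilent arrays and read by Feature Extraction 9.5.1.1, per the file headers. The deposited intensity used here is the processed signal, which the software had background-subtracted, and the deposited well-above-background, saturation and outlier flags were used beside it. A further table, holding averages that the authors computed, was not used. Control spots and outlier-marked spots were left out, log2 signal was taken relative to each array's 75th percentile, and spots of a probe were averaged. Probes were named through RefSeq accessions, 24375 of 41174 with 1 symbol, and the 24248 probes that cleared background on all arrays of 1 group or more entered the fit of limma 3.58.1 (R 4.3.3) over all 11 arrays, with Benjamini-Hochberg adjustment over those probes and a threshold of 0.05. A gene was read at its brightest probe. Percent of control is relative to the geometric mean over control arrays. The code was tested on simulated data. The number of arrays limits the precision. The methods describe triplicates, whereas the labels give 4, 4 and 3 arrays. Named genes are those past the threshold in any comparison (or at another probe with both siRNAs), key inhibin, activin, AMH, TGF-beta, Smad and Id genes whatever their result, and of the wider lists the 5 largest changes each way with both siRNAs, 1 of which is not reported here. The members, lists and tests were chosen with earlier results of these data known. Alternatives changed the background correction, scaling, filter, probe choice, test, slide or replicate block, or left out 1 array.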

Additional observations from a re-analysis of the deposited data

Results flagged for a closer look

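In 5 of the 58 groups of 4 arrays examined, 1 array stood apart by Dixon's test, which chance does in about 1 in 20 groups. These were control array 2 of *Inha*, the lowest of its group at 91.4% of control, siRNA1 array 1 of *Tgfb3*, the lowest at 109%, siRNA1 array 4 of *Gdf9*, the highest at 75.3%, siRNA1 array 1 of *Smad5*, the highest at 116%, and control array 4 of *Smad7*, the lowest at 72.1%.

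The responses to the siRNAs differed, by a direct limma test, for 16 of the 40 tested genes (40%, against 26.3% of all genes tested). The differences are given here as log2 of siRNA1 over siRNA2. The inhibin, activin and AMH pathway genes gave -0.36 for *Inha*, -2.10 for *Inhba*, -0.95 for *Inhbb* and -0.75 for *Amhr2*, and *Fstl3* gave 0.64. Ligand and receptor genes gave -0.63 for *Gdf9*, 0.67 for *Gdf15*, -0.97 for *Tgfbr2*, 0.51 for *Bmpr1a* and 1.12 for *Bmpr2*. The Smad, corepressor and Id genes gave -0.43 for *Smad5*, -0.52 for *Smad6*, 0.79 for *Tgif1*, -0.51 for *Id1*, 0.27 for *Id2* and -0.76 for *Id3*.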

How the results depend on the processing

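The 45 gene calls were all kept under quantile scaling, a filter on all arrays and slide as a block, and 36 to 41 were kept on leaving out 1 array. Under normexp, members higher and lower numbered 0 and 1 with siRNA1 and 0 and 0 with siRNA2, 0 passed with both and 1 differed between the siRNAs, and the wider lists had 1 and 0. There *Mamld1* turned to 0.65 and 0.44, *Gdf9* to 0.15, *Smad7* to 0.042 and *Id2* to -0.13 with siRNA1, *Tgfbr2* to 0.39, 0.28 and, between the siRNAs, 0.11, and *Tgfbr3* to 0.52 and 0.28. The median log2 difference of all probes was 0.22 and 0.17 under normexp, against -0.05 and -0.01 with the processed signal. Up to 10 spots on an array had extreme local backgrounds, and with these replaced, 41 calls were kept, 4 genes passed with both, *Mamld1* gave -0.21 with siRNA2 and *Acvr2b* turned to -0.061 with siRNA1. Without a filter on dim probes, 2 were lower with siRNA2 and 4 passed with both, and by the methods' adjusted t-test 2 and 3. *Mamld1* with siRNA2 was at -0.77 and above the threshold in both settings. Over all probes, siRNA2 calls were 3211 without the filter and 2854 by the t-test, against 4472 in the main fit. With a fold change of at least 2 required, under limma or the methods' unadjusted t-test, 0 and 2 were higher and lower with siRNA1, 0 and 0 with siRNA2, 0 with both, and 2 differed. The cause was not tested.

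Leaving out 1 array gave 4 to 9 higher and 9 to 10 lower with siRNA1, and 6 to 8 higher and 1 to 5 lower with siRNA2. It gave 3 to 7 with both, 12 to 16 differing, and 15 to 17 and 9 to 13 in the wider lists. *Mamld1* was at -1.11 to -0.84 and -0.88 to -0.58. Calls over all probes ranged over 4974 to 6672 with siRNA1, 2976 to 4412 with siRNA2 and 4235 to 5647 between the siRNAs. The labels give same-numbered arrays nothing in common but the number, though most such pairs also lay on 1 slide. Over 10 same-numbered pairs the deviations correlated with a median of 0.30 and a minimum of -0.18, and 9 of 11 arrays correlated best with their own number, but over the 4 such pairs on different slides the median was 0.16, and over all 13 pairs on the same slide it was 0.30, so number and slide are mixed. With the replicate block, 12 were higher and 10 lower with siRNA1, and 9 higher and 6 lower with siRNA2. There 8 passed with both and 20 differed, the wider lists had 19 and 18, and *Mamld1* was at -0.93 and -0.78. Calls over all probes rose too, from 6553 to 8398 with siRNA1, 4472 to 5848 with siRNA2 and 5709 to 7493 between the siRNAs. Dim probes such as those of *Fst* and *Fstl1* lie too near background to be compared.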
